A study of Rattus norvegicus with 10 samples.

Results

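The insulin-like growth factor (IGF) family was examined in rat nucleus pulposus cells after knockdown of Bnip3. Its 10 genes were chosen by symbol: the ligands Igf1 and Igf2, the receptors Igf1r and Igf2r, and the binding proteins Igfbp2, Igfbp3, Igfbp4, Igfbp5, Igfbp6 and Igfbp7. All 10 were on the array, each with 1 probeset, out of 15037 named genes. None of these probesets shared its values with another probeset. The family was put forward with the difference between the groups already in view, so the members' differences are given as a description, without p-values.

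Nucleus pulposus cells form the gelatinous core of the intervertebral disc, and here they came from male Sprague Dawley rats of about 300 g, aged 3 to 4 months. In 5 samples (ShCtrl) the cells had received a lentivirus with a control hairpin in the vector pLKO.1, and in 5 (ShBNIP3) a lentivirus that knocks down Bnip3. Its product sits on the outer surface of mitochondria and directs them to autophagy. RNA was collected 4 days after transduction in both groups, and titles number the arrays 1 to 5 (ShCtrl) and 6 to 10 (ShBNIP3). The number and sequence of the hairpins are not given in the sources used here. It is not stated whether samples of a group came from separate animals or cultures. The p-values therefore rest on sample-to-sample spread, part or all of which may be technical.

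IGF1 and IGF2 are secreted ligands that signal through the tyrosine kinase IGF1R, and IGF1 is known to promote matrix synthesis by disc cells. IGF2R does not signal in this way: it clears IGF2 from the surface and carries lysosomal enzymes tagged with mannose 6-phosphate. The binding proteins IGFBP1 to IGFBP6 hold IGFs with high affinity and can restrain or prolong their action until proteases release the ligand, while IGFBP7 binds IGFs only weakly.

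Levels are the authors' normalized log2 values, so a difference of 1 is a 2-fold change, and differences are ShBNIP3 minus ShCtrl. They are compared across arrays for 1 gene at a time, since probesets of different genes differ in brightness for reasons other than RNA amount. A probeset was taken as above background on an array when it exceeded the 95th percentile of 23 antigenomic background probesets, which match no rat sequence, which lay between 6.50 and 6.78. Bnip3 itself averaged 14.6 ± 0.79 in ShCtrl against 11.4 ± 0.77 (SD, n = 5 each) in ShBNIP3, with an exact two-sided permutation p of 0.0079, the smallest that 5 against 5 arrays can give. ShCtrl array 4 and ShBNIP3 array 10 stood apart from their groups, with mean correlations of 0.983 and 0.986 to the other arrays of the group, against 0.992 for each of the other 8. Bnip3 was at its group's highest on both, at 15.97 on array 4 and 12.68 on array 10. Several counts and differences, though not all, are therefore also given without these arrays.

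The cells carried some but not all markers of the labelled cell type. Of 14 measured nucleus pulposus markers, 8 were at background on all 10 arrays, among them the keratins Krt8, Krt18 and Krt19 and the notochordal factors Tbxt and Noto, while the matrix genes Acan and Col2a1 and the carbonic anhydrase Car3 were above it on every array. In the limma fit over all probesets, which called 15.5% of them (7.87% lower, 7.61% higher), 3 of the 14 passed an adjusted p under 0.05. Col2a1 fell (log2 difference -0.67) and so did Car3 (-1.29), while the cadherin Cdh2, at background on every ShCtrl array and above it on every ShBNIP3 array, was at least 1.57-fold higher. Without arrays 4 and 10, 1 of the 14 was called higher and 4 lower, Acan (-0.97) among the latter. In that fit 9.84% of all probesets were called higher and 10.1% lower. Of 9 markers of annulus fibrosus and fibroblasts, 8 were above background on every array. Their mean level lay between 14.3 and 14.4 on ShCtrl arrays and between 14.0 and 14.3 on ShBNIP3 arrays. In the fit with all 10 arrays 4 of the 9 fell (the collagens Col1a1, Col1a2 and Col3a1, and Thy1). Without arrays 4 and 10 it was 3 of the 9, and Col1a2 was not called. Of 12 macrophage and leukocyte markers, 10 were at background on all arrays, including Ptprc, Csf1r and Itgam. Their mean level was 4.78 to 5.05 in ShCtrl and 5.01 to 5.29 in ShBNIP3. With all 10 arrays 3 of the 12 were called higher. Of these, Cd14 and Cd68 were above background, Cd68 on all arrays but 1, whereas Cd53 was at background on all 10, so no change is read from it. Endothelial markers, 7 of 7, were at background throughout, and so were 5 of 6 markers of skeletal muscle. The sixth, the intermediate filament gene Des, was above background on every array and fell 5.79-fold (log2 difference -2.53). Whether these markers had a part in the results below was not tested, and in bulk RNA fewer cells of a type and less RNA per cell cannot be told apart.

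The binding proteins Igfbp4, Igfbp5 and Igfbp6 were lower in ShBNIP3, and their groups did not overlap. The other members differed by less or varied more between arrays. In the limma fit over all 23188 probesets, with Benjamini-Hochberg adjusted p under 0.05, 3 of the 10 members were called, all 3 lower. Over all probesets 15.5% were called, 7.87% lower and 7.61% higher. The median difference of the 10 members was -0.02, beside 0.02 for all probesets. Groups did not overlap for 4 members, the fourth being Igfbp7, where 12.9% of all probesets had groups that did not overlap.

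The stretches of genome just upstream of the 3 members called lower are shown to let their control regions be compared. Each is the 250 bases before the gene's start in RefSeq on build GRCr8, printed 5′ to 3′ on the gene's strand, with matches to the searched motifs in capitals. Igfbp4 lies on the plus strand (chr10:84491221-84491470), Igfbp5 on the minus strand (chr9:81914188-81914437) and Igfbp6 on the plus strand (chr7:135154669-135154918). Start sites were not measured in these samples.
Igfbp4: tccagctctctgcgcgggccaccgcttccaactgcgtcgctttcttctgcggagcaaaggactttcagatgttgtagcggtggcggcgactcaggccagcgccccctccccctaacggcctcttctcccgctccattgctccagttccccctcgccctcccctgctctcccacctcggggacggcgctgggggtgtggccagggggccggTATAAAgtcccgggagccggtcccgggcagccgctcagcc
Igfbp5: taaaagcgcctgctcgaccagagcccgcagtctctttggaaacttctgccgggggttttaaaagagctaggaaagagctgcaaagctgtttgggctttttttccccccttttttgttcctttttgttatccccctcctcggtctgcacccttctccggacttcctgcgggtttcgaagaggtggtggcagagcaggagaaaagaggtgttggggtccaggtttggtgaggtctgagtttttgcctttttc
Igfbp6: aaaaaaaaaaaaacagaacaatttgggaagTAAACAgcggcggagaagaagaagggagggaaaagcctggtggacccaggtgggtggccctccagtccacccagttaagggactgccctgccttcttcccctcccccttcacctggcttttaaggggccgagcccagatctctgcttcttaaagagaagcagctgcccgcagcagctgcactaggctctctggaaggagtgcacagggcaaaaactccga

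The 3 windows differ in composition: 68.8% of the bases are G or C in Igfbp4, 51.6% in Igfbp5 and 54.8% in Igfbp6, where the median of all 33469 RefSeq windows is 51.2%. On both strands, 6 motifs were searched: the TATA box (TATAAA), the GC box (GGGCGG), the CCAAT box (CCAAT), the E box (CACGTG), the core bound by hypoxia-inducible factors (ACGTG, which every E box also holds) and a FOXO site (TGTTTA). Igfbp4 holds a TATA box that begins 40 bases before the start, a motif found in 12.9% of all windows. Igfbp6 holds a FOXO site, seen as TAAACA on the printed strand and present in 12.1% of windows. Igfbp5 holds none of the 6. The core ACGTG is in none of these 3 windows. It is in the windows of 5 other members (Igf2, Igf1r, Igf2r, Igfbp2 and Igfbp7), against 16.6% of all windows. Those 5 windows are between 62.4% (Igf2) and 79.6% (Igf1r) G or C, above the median of all windows. Whether composition bears on these matches was not tested. GC boxes, in 30.5% of all windows, are in those of Igf1r, Igf2r, Igfbp2 and Igfbp7, and E boxes, in 5.59%, in those of Igf1r, Igf2r and Igfbp2. The CCAAT box, in 34.0% of all windows, is in no member's window. These matches describe letters in a short window and say nothing of what binds there.

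**Figure D1:**
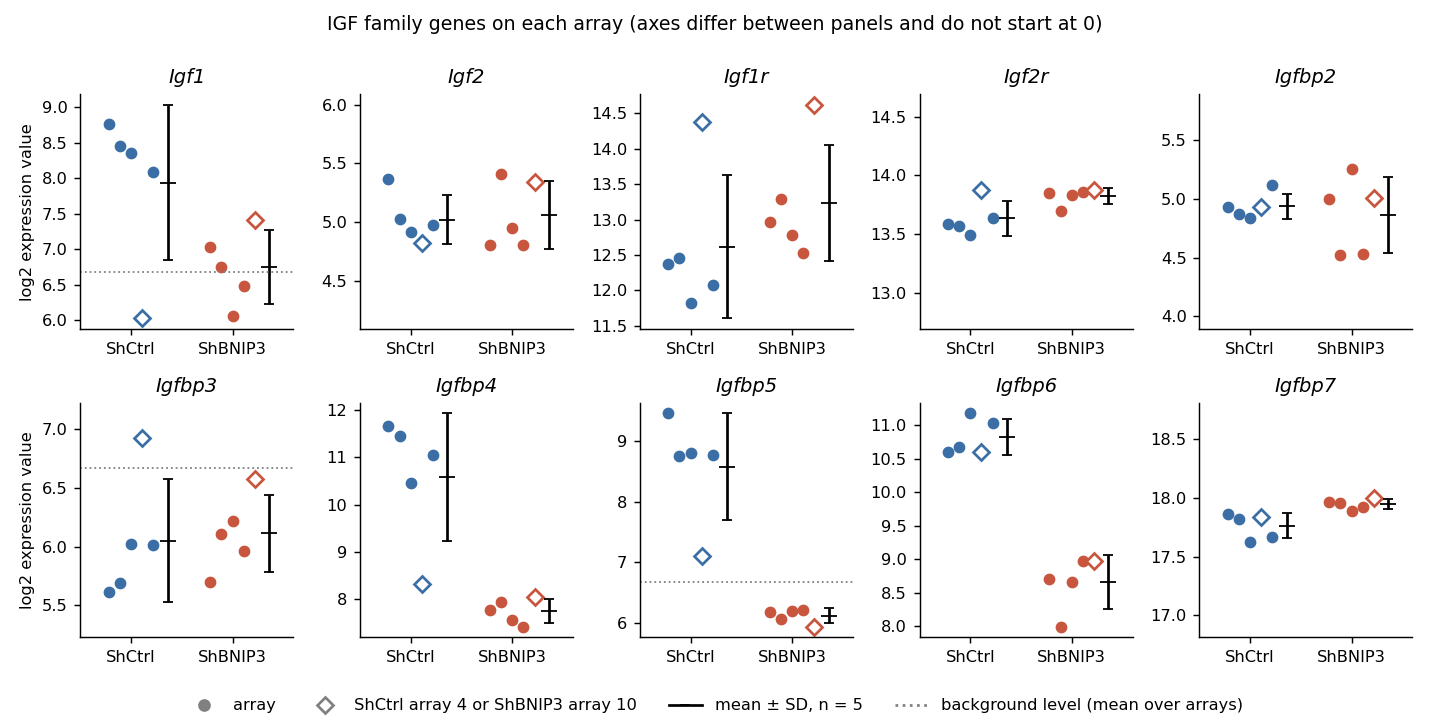
Log2 expression value (y axis) of the 10 IGF family genes on the 5 ShCtrl and 5 ShBNIP3 arrays, with group means ± SD (n = 5), arrays 4 and 10 as open diamonds, and the mean background level as a dotted line where it falls within the panel. Igfbp4, Igfbp5 and Igfbp6 are separated between the groups, Igf1r is highest on both marked arrays, and Igf2 and Igfbp2 stay between 4.53 and 5.41.

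Of the ligands, Igf1 was measured above background and Igf2 was not. Igf1 read 8.76, 8.45, 8.36, 6.02 and 8.09 on ShCtrl arrays 1 to 5, and 7.03, 6.75, 6.06, 6.49 and 7.41 on ShBNIP3 arrays 6 to 10. The 4 ShCtrl arrays other than array 4 were above every ShBNIP3 array, and array 4 was below all 5 of them, so the groups overlapped. The group means were 7.94 ± 1.10 and 6.75 ± 0.52 (SD, n = 5 each), a difference of -1.19 (SE 0.44), which the fit did not call. Igf1 was above background on 4 ShCtrl arrays and on 3 ShBNIP3 arrays. Since both groups held values at background, the size of its difference is uncertain.

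The call for Igf1 turned on array 4. Without ShCtrl array 4 the difference of Igf1 was -1.67 and the fit called it. Without arrays 4 and 10 together it was -1.83 (SE 0.21), and it was called there too. Igf2, the ligand best known from fetal growth, was at background on all 10 arrays, between 4.82 and 5.37 in ShCtrl and between 4.80 and 5.41 in ShBNIP3. No fold is given for it.

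Igf1r, the signalling receptor, was above background on every array. It read 12.37, 12.46, 11.82, 14.37 and 12.08 in ShCtrl and 12.96, 13.29, 12.78, 12.52 and 14.62 in ShBNIP3. Arrays 4 and 10 were the highest of their groups, by 2.19 and 1.73 over the mean of the other 4. With all arrays the means were 12.62 ± 1.01 and 13.24 ± 0.82 (SD, n = 5 each), a difference of 0.62 (SE 0.47) that the fit did not call.

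The difference of Igf1r depended on which of these arrays was kept. It was 1.06 without array 4 and 0.27 without array 10, in each case not called. Without both arrays it was 0.71 (SE 0.19), and there the fit called Igf1r higher in ShBNIP3. The 4 remaining ShBNIP3 arrays, from 12.52 to 13.29, then lay above the 4 remaining ShCtrl arrays, from 11.82 to 12.46.

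Igf2r varied little. It read between 13.49 and 13.88 in ShCtrl and between 13.70 and 13.87 in ShBNIP3, a difference of 0.19 (SE 0.11) that the fit did not call, and 0.24 (SE 0.11) without arrays 4 and 10. Its within-group SD of 0.12 was at the 3.30th percentile of all probesets. Those of Igf1r (0.92) and Igf1 (0.86) were at the 99.0th and the 98.7th.

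Igfbp4, a binding protein known mainly to restrain IGF action, had the largest measured difference of the family. It read 11.65, 11.45, 10.45, 8.32 and 11.05 in ShCtrl, and 7.77, 7.95, 7.56, 7.43 and 8.05 in ShBNIP3. Every ShBNIP3 array was below every ShCtrl array, but array 4 was only 0.28 above the highest ShBNIP3 array. The means were 10.59 ± 1.35 and 7.75 ± 0.26 (SD, n = 5 each), a difference of -2.84 (SE 0.50), or 14.0% of the control level. Counted from the lowest, its difference ranked 22 among 23188 probesets.

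Array 4 also set much of the spread of Igfbp4. Without it the 4 ShCtrl arrays had a mean of 11.15 ± 0.53 (SD, n = 4), and array 4 lay at -2.83 from that mean. Without arrays 4 and 10 the difference was -3.47 (SE 0.23).

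Igfbp5, a binding protein that also attaches to extracellular matrix, was detected in ShCtrl and not in ShBNIP3. It read 9.47, 8.77, 8.80, 7.10 and 8.78 in ShCtrl, all above background, and 6.19, 6.06, 6.21, 6.22 and 5.94 in ShBNIP3, all at background. The lowest ShCtrl value was again that of array 4. The means were 8.58 ± 0.88 and 6.12 ± 0.12 (SD, n = 5 each), a difference of -2.46 (SE 0.33). With ShBNIP3 set to its background level, Igfbp5 was at least 3.68-fold lower. Without arrays 4 and 10 the difference was -2.78 (SE 0.16).

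Igfbp6, which prefers IGF2 over IGF1, was lower without array 4 standing out. It read 10.60, 10.68, 11.18, 10.60 and 11.02 in ShCtrl, and 8.71, 8.00, 8.66, 8.97 and 8.98 in ShBNIP3. Its groups were 1.62 apart, the widest gap in the family. The means were 10.82 ± 0.27 and 8.66 ± 0.40 (SD, n = 5 each), a difference of -2.15 (SE 0.19), or 4.45-fold. Array 4 lay at -0.27 from the mean of the other ShCtrl arrays, and without arrays 4 and 10 the difference was -2.29 (SE 0.21).

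The remaining binding proteins showed no call. Igfbp2, which carries an integrin-binding motif, was at background on all 10 arrays, from 4.84 to 5.12 in ShCtrl and from 4.53 to 5.26 in ShBNIP3. It neighbours Igfbp5 on chromosome 9, with no protein-coding gene between them in RefSeq. Igfbp3, the main carrier of IGFs in blood, was above background on array 4 alone, at 6.93, where the other ShCtrl arrays read 5.61 to 6.02 and the ShBNIP3 arrays 5.70 to 6.58. The highest of the ShBNIP3 values was that of array 10.

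Igfbp7 was bright and nearly constant. It read 17.86, 17.82, 17.63, 17.84 and 17.67 in ShCtrl and 17.97, 17.95, 17.89, 17.93 and 18.00 in ShBNIP3. All ShBNIP3 arrays were above all ShCtrl arrays, by a gap of 0.02. The difference was 0.18 (SE 0.10), which the fit did not call, and its within-group SD of 0.08 was at the 0.673rd percentile of all probesets.

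**Figure D2:**
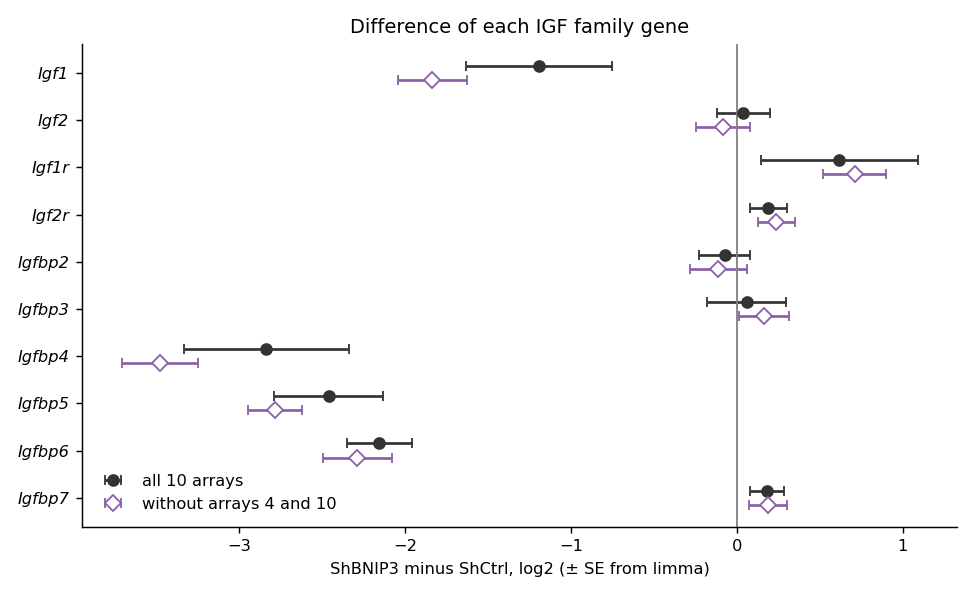
Difference of each IGF family gene, ShBNIP3 minus ShCtrl in log2 units (x axis) with the SE from limma, for all 10 arrays (filled circles) and without arrays 4 and 10 (open diamonds). Igfbp4, Igfbp5 and Igfbp6 lie between -2.84 and -2.15 with all arrays, and Igf1 moves from -1.19 to -1.83 without the 2 arrays.

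Without arrays 4 and 10 the fit called 5 of the 10 members, where 19.9% of all probesets were called, 10.1% lower and 9.84% higher. Igf1, Igfbp4, Igfbp5 and Igfbp6 were lower and Igf1r higher. The 3 members called with all arrays were among them. Igf2, Igf2r, Igfbp2, Igfbp3 and Igfbp7 were not called with either set of arrays.

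Arrays 4 and 10 were alike in some members and not in others. Igf1r lay above the rest of its group on both, and so did Igfbp3, by 1.09 on array 4 and by 0.58 on array 10. Igfbp3 was above background on array 4 alone, so its value for array 10 compares readings at background. Igf1 lay at -2.39 from the mean of the other ShCtrl arrays on array 4, but at 0.83 from that of the other ShBNIP3 arrays on array 10. Igfbp5 was at -1.85 on array 4 and at -0.23 on array 10, where it was at background in any case. On array 4 the levels of Igf1, Igfbp4 and Igfbp5 thus lay nearer to those of the ShBNIP3 arrays than to those of the other ShCtrl arrays, while its Bnip3 level was the highest of all 10 arrays.

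**Figure D3:**
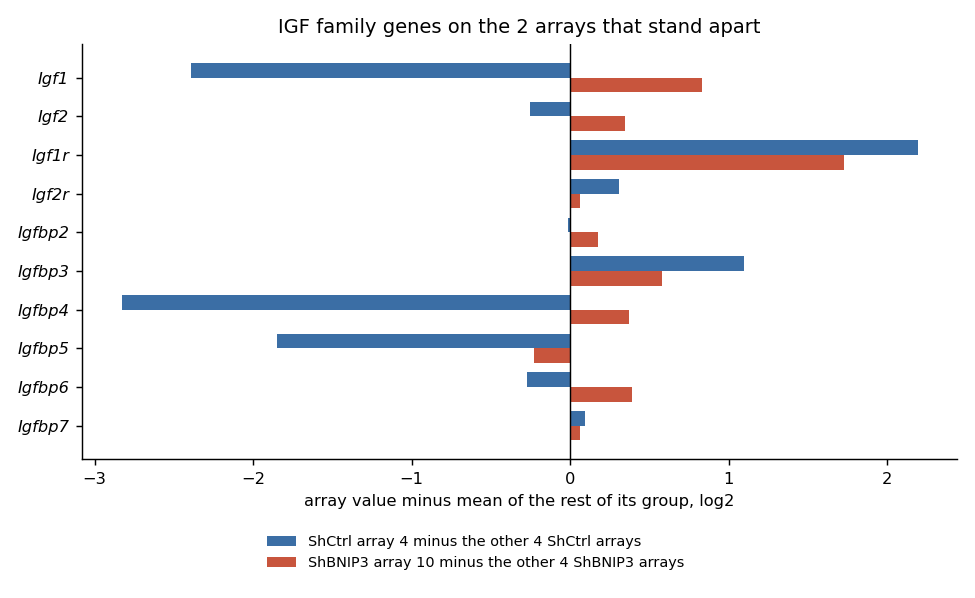
Value of each IGF family gene on ShCtrl array 4 and ShBNIP3 array 10 minus the mean of the other 4 arrays of the same group (x axis, log2 units). Igf1r is above its group on both arrays (2.19 and 1.73), while Igf1 is below on array 4 (-2.39) and above on array 10 (0.83).

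The pattern of Igfbp4 and Igfbp5, the 2 members with the largest measured differences, was set beside all other named genes by Pearson correlation over the 10 arrays. Since Igfbp5 was at background in ShBNIP3 and its fold is only bounded there, its order against Igfbp6 is not established, and its ShBNIP3 values enter the correlation as measured. This measure is a description: the 2 groups separate for these genes, which by itself gives high values, and all points share the same arrays. For Igfbp4 the closest were Nfic (r = 0.985), a nuclear factor I transcription factor, Ccny (0.983), a cyclin, Zc3hav1 (0.981), an antiviral zinc finger protein, the hyaluronidase Hyal1 (0.980) and the growth factor precursor Grn (0.980). Their differences lay between -1.24 and -0.67, less than that of Igfbp4, and 46 named genes had an r over 0.95. For Igfbp5 the closest were Shisa5 (r = 0.991), the clathrin adaptor subunit Ap1m1 (0.985), the histone gene H2ac21 (0.983), the ubiquitin-conjugating variant Ube2v1 (0.982) and Dtx3 (0.981). Here 80 named genes had an r over 0.95.

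Genes that control the supply of IGF moved in both directions. Of 25 listed regulators (other binding and carrier proteins, IGFBP proteases and their inhibitors, processing enzymes, RNA-binding proteins and receptor adaptors) 19 were measured, of which 2 rose and 3 fell, beside 15.5% of all probesets called. The median of the list was 0.07. The IGFBP protease genes Pappa and Pappa2 have no named probeset and were not analysed here.

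Pcsk6, a proprotein convertase, fell. ShCtrl arrays averaged 7.95 ± 0.26 and ShBNIP3 arrays 6.49 ± 0.33 (SD, n = 5 each), a difference of -1.46 (SE 0.18, limma adjusted p = 0.00015) with no overlap of the groups, and it was above background on 1 of the 5 ShBNIP3 arrays. Furin, the convertase that can cleave the IGF1 receptor precursor, rose 2.01-fold, from 10.86 ± 0.28 to 11.87 ± 0.53 (limma adjusted p = 0.010), with overlapping groups. Htra1, a secreted serine protease that cleaves several matrix and binding proteins, rose by 0.48 (SE 0.11, limma adjusted p = 0.012), and no ShBNIP3 array was below a ShCtrl array.

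Igf2bp2, an RNA-binding protein named for its binding to Igf2 messenger RNA, fell 2.01-fold (log2 -1.01, SE 0.24, limma adjusted p = 0.012). Array 4 read 9.70, where the other ShCtrl arrays read 8.20 to 8.70. The difference of Igf2bp2 was -0.75 without array 4 and -0.82 without arrays 4 and 10 (limma adjusted p = 0.0012). Stc2, a secreted inhibitor of the PAPP-A proteases that act on IGFBP4, fell (log2 difference -1.22, SE 0.37, limma adjusted p = 0.042). It was highest on array 4, at 12.75, where the other ShCtrl arrays read 10.59 to 10.88. The adjusted p of Stc2 was over 0.05 when array 2, 3, 5, 6, 7, 8 or 9 was left out, at most 0.107, and 0.0725 with a trended and robust variance, and the difference was -0.96 without arrays 4 and 10 (limma adjusted p = 0.0020). Without these arrays 8 of the 19 regulators were called, 4 higher and 4 lower, where 19.9% of all probesets were called, 9.84% higher and 10.1% lower.

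Genes of the signalling path below the receptors moved in both directions. Of 44 listed genes 36 were measured, of which 6 rose and 3 fell, beside 15.5% of all probesets called, and the median of the list was 0.15, beside 0.02 for all probesets. Those that rose were 3 subunits of phosphoinositide 3-kinase, the adaptor Shc1, Foxo1 and Mtor. The count of called signalling genes was 4 without ShBNIP3 array 7 and 5 without ShBNIP3 array 8. In those fits 2930 and 2746 of the 23188 probesets were called, against 3590 with all arrays. Without arrays 4 and 10 the fit called 10 signalling genes, 6 higher and 4 lower. There 9.84% of all probesets were called higher and 10.1% lower. Pik3r3, a regulatory subunit of phosphoinositide 3-kinase, had the largest difference: ShCtrl arrays averaged 7.51 ± 0.72 and ShBNIP3 arrays 9.46 ± 0.53 (SD, n = 5 each), 3.88-fold higher (log2 1.96, SE 0.33, limma adjusted p = 0.0016). It was above background on every array but ShCtrl array 4, which read 6.25 against 7.54 to 7.99 on the other ShCtrl arrays. The log2 difference of Pik3r3 was 1.64 without array 4 and 1.81 without arrays 4 and 10. The catalytic subunit Pik3ca rose 1.67-fold (limma adjusted p = 0.00092) and the adaptor Shc1 1.49-fold (limma adjusted p = 0.017). In all 3 of these genes the groups did not overlap.

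The other rises were less stable. The regulatory subunit Pik3r1 (difference 0.81, limma adjusted p = 0.037) passed 0.05 in the fits without array 4 or 6 and missed it without any other single array, at most 0.0928. The transcription factor Foxo1, which IGF signalling holds in the cytoplasm (difference 0.82, limma adjusted p = 0.028), missed it without array 1, 3, 4, 7 or 8, at most 0.0636. Its difference was 0.48 without arrays 4 and 10 (limma adjusted p = 0.029). The growth kinase Mtor (difference 0.62, limma adjusted p = 0.033) missed it without array 1, 3, 5, 6, 7 or 10, at most 0.0836.

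The falls were in Gsk3a, Irs2 and Phlpp1. Gsk3a, a kinase that AKT inhibits, averaged 13.01 ± 0.08 on ShCtrl arrays and 12.06 ± 0.18 on ShBNIP3 arrays (SD, n = 5 each), 1.94-fold lower (limma adjusted p = 0.00016). Its close relative Gsk3b differed by -0.05 (limma adjusted p = 0.84). Irs2, a docking protein of the IGF1 and insulin receptors, fell (log2 difference -1.25, SE 0.35, limma adjusted p = 0.029). It was above background on 1 of the 5 ShBNIP3 arrays, array 10. It was highest on array 4, at 9.33 against 7.33 to 7.66 on the other ShCtrl arrays, and missed 0.05 without array 6, 7, 8 or 9, at most 0.0763. Phlpp1, a phosphatase of AKT named after its values were seen, fell by 0.52 (SE 0.16, limma adjusted p = 0.047) and missed 0.05 without any single array other than 1 or 10, at most 0.113, and after quantile normalization (limma adjusted p = 0.0518).

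**Figure D4:**
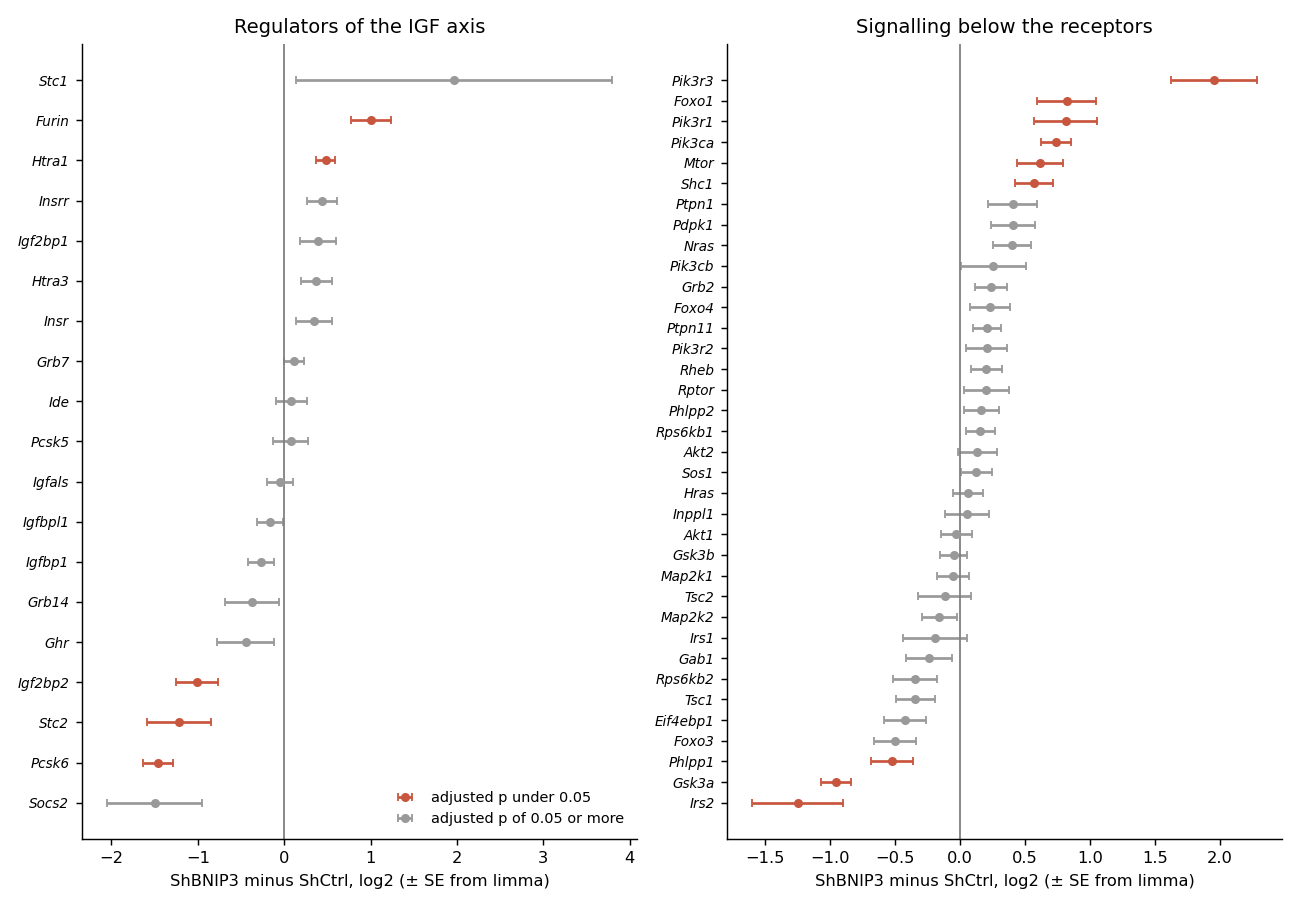
Difference, ShBNIP3 minus ShCtrl in log2 units with the SE from limma (x axis), for the 19 measured regulators of the IGF axis (left) and the 36 measured signalling genes (right), coloured by whether the adjusted p was under 0.05. Pik3r3 (1.96) and Pcsk6 (-1.46) have the largest differences among the genes that passed, and Stc1 has the widest error.

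For the lysosomal function of Igf2r, 3 of 4 listed genes of mannose 6-phosphate sorting were measured. M6pr, the other receptor for this tag, rose from 12.81 ± 0.06 to 13.50 ± 0.18 (SD, n = 5 each), a difference of 0.69 (SE 0.12, limma adjusted p = 0.0015) with no overlap. Gnptg and Nagpa, which make the tag, differed by 0.16 (limma adjusted p = 0.51) and -0.29 (limma adjusted p = 0.25).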

How the data were processed

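The deposited table gives a log2 expression value for each probeset on each array, which the authors made by sst-rma from biotin-labelled cDNA of the GeneChip WT Plus kit, per the labels. Transcriptome Analysis Console is the tool in the submitters' processing notes, without a version. The extraction text also mentions mouse tissue, which was set aside because it matches neither organism nor treatment. Groups come from the titles. Array medians lay between 6.16 and 6.19, and values were used as deposited. The 1646 control probesets were left out. The platform annotation names 15049 of the 23188 others. The number of arrays limits the precision. Differences were fitted with limma 3.58.1 (lmFit, eBayes) in R 4.3.3, which was tested on simulated data. The members and the lists of other genes were chosen with earlier results of these data known. Named in the text are all members, Bnip3, the called genes of each other list (at most 8, by size of difference; Phlpp1 is the ninth called signalling gene), and the 5 genes closest in pattern to each of 2 members. Any other gene was named after its values were seen. Alternatives were leaving out arrays, other variance and weight models, other scalings, a brightness filter and fold thresholds. Promoter windows come from RefSeq tables on GRCr8, which matched all 10 members.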

Additional observations from a re-analysis of the deposited data

Results flagged for a closer look

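Levels of 26 genes (the members, Bnip3 and the other called genes) were examined in both groups for a sample far from the rest, by its gap to the nearest sample as a share of the group's range. Of 52 sets of 5 arrays 7 passed Dixon's 95% critical value, where chance gives about 1 in 20, and in 5 of the 7 the sample was ShCtrl array 4. The sets come from the same arrays and are not independent, so the count is no test against that share. In ShCtrl, array 4 was low for Igf1 (a gap of 0.754 of the range) and Pik3r3 (0.746), and high for Igf1r (0.749), Stc2 (0.866) and Irs2 (0.838). ShBNIP3 array 7 was low for Igf2r, with a gap of 0.793, at 13.70 where the other ShBNIP3 arrays read 13.84 to 13.87. ShCtrl array 1 was low for Gsk3a, with a gap of 0.711, at 12.87 against 13.01 to 13.07. Without array 4 the fit also called Igf1.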

How the results depend on the processing

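Igfbp4, Igfbp5 and Igfbp6 were called under every alternative run. The count of members was 3 to 4 with 1 array left out, 4 with array weights and 5 without arrays 4 and 10. Counts over all probesets were 2746 to 3960 with 1 array left out, 4595 with array weights and 4622 without arrays 4 and 10. The fit as reported called 3590. A test against 1.2-fold called 1383, and 969 were left when a 2-fold change was also required. For those 2 settings the signalling genes called were 3 and 2 in place of 9, and the mannose 6-phosphate genes 1 and 0. Of the regulators, 1 was called against 1.2-fold, 4 with the 2-fold change, and 8 without arrays 4 and 10. With 1 array left out, 4 to 6 regulators and 4 to 8 signalling genes were called. Fewer genes pass a stricter threshold by construction, and for the other changes the cause was not tested. The difference of Bnip3 stayed between -3.53 and -2.87. Of the called genes outside the family, Pcsk6, Pik3ca, Pik3r3, Gsk3a and M6pr passed 0.05 in all 17 fits. No paired analysis was possible because the groups share no array numbers. Signal near background limits Igf2, Igfbp2, Igfbp3 and the lower end of Igf1 and Igfbp5.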

Other observations

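Stc1, a secreted relative of Stc2, was named after its values were seen. It read 15.54 on ShCtrl array 4 and 16.46 on ShBNIP3 array 10, where the other ShCtrl arrays lay between 6.46 and 7.15 and the other ShBNIP3 arrays between 8.32 and 9.61. With all arrays its difference was 1.97 (SE 1.83, limma adjusted p = 0.57). Without arrays 4 and 10 it was 2.23 (limma adjusted p = 7.55e-05), with every remaining ShBNIP3 array above every remaining ShCtrl array.

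Socs2, a feedback inhibitor of growth hormone signalling, also named after its values were seen, was low on array 4 in the same way as Igf1. It read 5.26 there and 6.91 to 8.26 on the other ShCtrl arrays. Array 4 was at background, as were 4 of the 5 ShBNIP3 arrays, so no exact fold can be read. The measured difference was -1.50 with all arrays (limma adjusted p = 0.091) and -1.89 without arrays 4 and 10 (limma adjusted p = 0.011). The growth hormone receptor Ghr was likewise at its lowest in each group on these arrays, at 7.92 and 7.72.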
